A study of Mus musculus with 30 samples.

Results

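The transcripts of 10 genes of hepatic drug metabolism were followed across livers that differed in the KEAP1-NRF2 pathway. They are 7 cytochromes P450 (Cyp2b10, Cyp2c29, Cyp2c50, Cyp2c54, Cyp2c55, Cyp3a11, and Cyp3a25), the reductase gene Por, and the receptor genes Nr1i2, which encodes the pregnane X receptor (PXR), and Nr1i3, which encodes the constitutive androstane receptor (CAR). The genes were taken by symbol from the table of read counts, in which all 10 had 1 row each among 55335 genes, and all 10 had enough reads to be tested in every comparison. Livers came from male mice aged 7 to 10 weeks, and all groups shared the strain B6(Cg)-Tyr c-2J/J, an albino line of C57BL/6J. Wild-type mice were compared with mice homozygous for C151S, a CRISPR knock-in that replaces the KEAP1 sensor cysteine of that name with serine in the whole body, and with mice homozygous for an Nrf2 knockout. The wild-type mice came from the Jackson Laboratory, whereas the mutants were mated as homozygotes. Genotype and source of the mice therefore cannot be told apart in comparisons between genotypes. Each genotype received 1 oral dose of vehicle (DMSO, Cremophor-EL, and phosphate-buffered saline) or of the triterpenoid CDDO-Me (bardoxolone methyl) at 30 µmol/kg, and the liver was taken 24 hours later. There were 5 mice in each of the 6 groups, 30 RNA-seq libraries in all.

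CAR and PXR are nuclear receptors that sense drugs and endogenous lipids. In the liver each pairs with the retinoid X receptor and raises the transcription of P450 genes, with Cyp2b10 the usual marker of CAR and Cyp3a11 that of PXR. The P450 enzymes insert oxygen into drugs, steroids, and fatty acids, and take their electrons from the reductase that Por encodes. KEAP1 holds the transcription factor NRF2 at a low level until electrophiles such as CDDO-Me modify its cysteines.

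The libraries held 23667068 to 42073169 counts on genes. Levels are given as CPM, the counts of a gene scaled to the normalized size of its library. Nfe2l2, which encodes NRF2, was at 22.4 to 39.7 CPM in the 10 Nrf2-knockout livers and at 42.2 to 86.1 CPM in the other 20, so the knockout libraries carried the lowest levels and the 2 ranges did not overlap. The C151S change replaces a residue and cannot be checked by the level of Keap1, which was 38.3 to 77.7 CPM across all livers. The 5 hepatocyte markers Alb, Apoa1, Ttr, Tat, and Cps1 were detected in every group, with summed levels of 64115 to 150625 CPM. Arntl, a core clock gene, split the libraries into 11 with low and 19 with high levels, with no wild-type library on the low side. Of the low libraries, 2 were C151S vehicle, 3 C151S CDDO-Me, 3 Nrf2-knockout vehicle, and 3 Nrf2-knockout CDDO-Me. The RNA was from whole liver, in which fewer cells of a type and less RNA per cell cannot be told apart.

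The P450 genes lie in family clusters on the GRCm38 build. Cyp2c55 (chr19:39007019-39042693), Cyp2c29 (chr19:39269405-39330713), Cyp2c54 (chr19:40037940-40073827), and Cyp2c50 (chr19:40089688-40113950) share chromosome 19, and Cyp2c54 and Cyp2c50 stand on opposite strands with 15860 bases between them. Cyp3a11 (chr5:145854426-145879964) and Cyp3a25 (chr5:145977194-146009618) share chromosome 5 with Por (chr5:135670033-135735326). Cyp2b10 is at chr7:25897620-25926624, Nr1i2 at chr16:38248323-38294824, and Nr1i3 at chr1:171213970-171220701. All 10 are annotated as protein-coding.

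The promoters of 5 genes that passed a test and held a motif match are shown. Nr1i3 and Cyp3a11 moved with treatment in wild-type mice, and Cyp2c29, Cyp2c50, and Cyp3a25 were lower in Nrf2-knockout mice. Cyp3a11 and Cyp3a25 are of 1 family but moved in different comparisons. Cyp2b10 and Cyp2c55 also passed a test, but their promoters held no match and are not shown. Those of Por and Nr1i2 held no match either. Each is the 250 bases before the RefSeq start site (GRCm38.p6), 5′ to 3′ on the strand of the gene, and capitals mark matches to the motifs searched.
Nr1i3, chr1:171213720-171213969, plus strand: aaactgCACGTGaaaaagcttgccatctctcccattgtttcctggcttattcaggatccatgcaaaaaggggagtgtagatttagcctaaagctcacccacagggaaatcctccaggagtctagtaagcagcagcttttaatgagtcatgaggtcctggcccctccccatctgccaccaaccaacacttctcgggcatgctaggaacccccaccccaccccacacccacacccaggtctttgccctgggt
Cyp3a11, chr5:145879855-145880104, minus strand: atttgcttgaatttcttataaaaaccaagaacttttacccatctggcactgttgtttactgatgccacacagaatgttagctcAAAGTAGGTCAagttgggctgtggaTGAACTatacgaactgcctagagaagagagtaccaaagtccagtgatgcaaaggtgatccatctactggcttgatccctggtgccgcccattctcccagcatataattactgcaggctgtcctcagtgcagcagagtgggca
Cyp3a25, chr5:146009618-146009867, minus strand: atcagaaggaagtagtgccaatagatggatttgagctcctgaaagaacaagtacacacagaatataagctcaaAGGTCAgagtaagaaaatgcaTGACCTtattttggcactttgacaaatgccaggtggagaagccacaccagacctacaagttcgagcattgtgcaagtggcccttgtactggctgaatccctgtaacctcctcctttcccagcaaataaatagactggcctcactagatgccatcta
Cyp2c29, chr19:39286835-39287084, plus strand: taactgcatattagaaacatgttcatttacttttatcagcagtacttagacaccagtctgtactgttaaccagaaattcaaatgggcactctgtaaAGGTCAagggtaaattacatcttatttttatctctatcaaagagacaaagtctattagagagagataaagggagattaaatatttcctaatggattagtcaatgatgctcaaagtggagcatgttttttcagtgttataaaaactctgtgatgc
Cyp2c50, chr19:40089429-40089678, plus strand: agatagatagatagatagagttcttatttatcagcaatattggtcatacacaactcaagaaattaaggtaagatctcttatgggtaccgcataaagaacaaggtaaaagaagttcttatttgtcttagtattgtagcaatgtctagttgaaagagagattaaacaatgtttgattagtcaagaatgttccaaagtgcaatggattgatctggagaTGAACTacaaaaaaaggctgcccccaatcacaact

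Both strands were searched. The nuclear receptor hexamer AGGTCA stood at -154 to -149 from the start site of Cyp2c29, at -162 to -157 in Cyp3a11, and at 2 places in Cyp3a25 (-177 to -172 and, on the opposite strand, -156 to -151), and it is in 14.0% of the 32536 distinct promoters of this length. In Cyp3a11 the same letters are part of a match to the ROR element, which 0.332% of promoters hold. TGAACT stood at -35 to -30 in Cyp2c50 and at -142 to -137 in Cyp3a11, and is in 11.8% of promoters. The E-box CACGTG stood at -244 to -239 in Nr1i3, and is in 6.04% of promoters. Direct repeats of AGGTCA with 3, 4, or 5 bases between them (0.00615%, 0.0154%, and 0.00922% of promoters) had no match in the windows of the 9 genes with an entry. The same held for TGAACT and AGGTCA with 6 bases between them (0% of promoters) and for the antioxidant response element core TGACNNNGC (10.2%). The sites TTATGTAA (0.811%) and TTACGTAA (0.114%) had no match there either. Because the repeats are this rare in all promoters, their absence says nothing particular about these genes. Cyp2c54 has no entry. A match of letters is a description of the window and not a measured binding site.

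Per kilobase of exon, Cyp3a11 was the most abundant of the 10 in wild-type vehicle livers, at 1624 ± 345 CPM per kilobase (SD, n = 5). It was followed by Cyp2c29 at 857 ± 162, Cyp3a25 at 397 ± 54.8, Cyp2c50 at 257 ± 63.5, Cyp2c54 at 153 ± 46.6, and Por at 71.5 ± 6.45 CPM per kilobase. Nr1i3 at 39.6 ± 10.4 and Nr1i2 at 29.9 ± 3.51 CPM per kilobase lay within 1 SD of each other, and Cyp2c55 at 19.7 ± 7.18 and Cyp2b10 at 10.5 ± 5.02 were the lowest. Reads with a single genomic position were counted, so copies matter. Of the 50-base stretches in the transcripts, 26.8% of Cyp3a25 (mostly shared with Cyp3a59), 25.7% of Cyp2c54, 18.3% of Cyp2c50, and 8.70% of Cyp2b10 also occur in other genes, whereas Por, Nr1i2, and Nr1i3 share none.

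**Figure D1:**
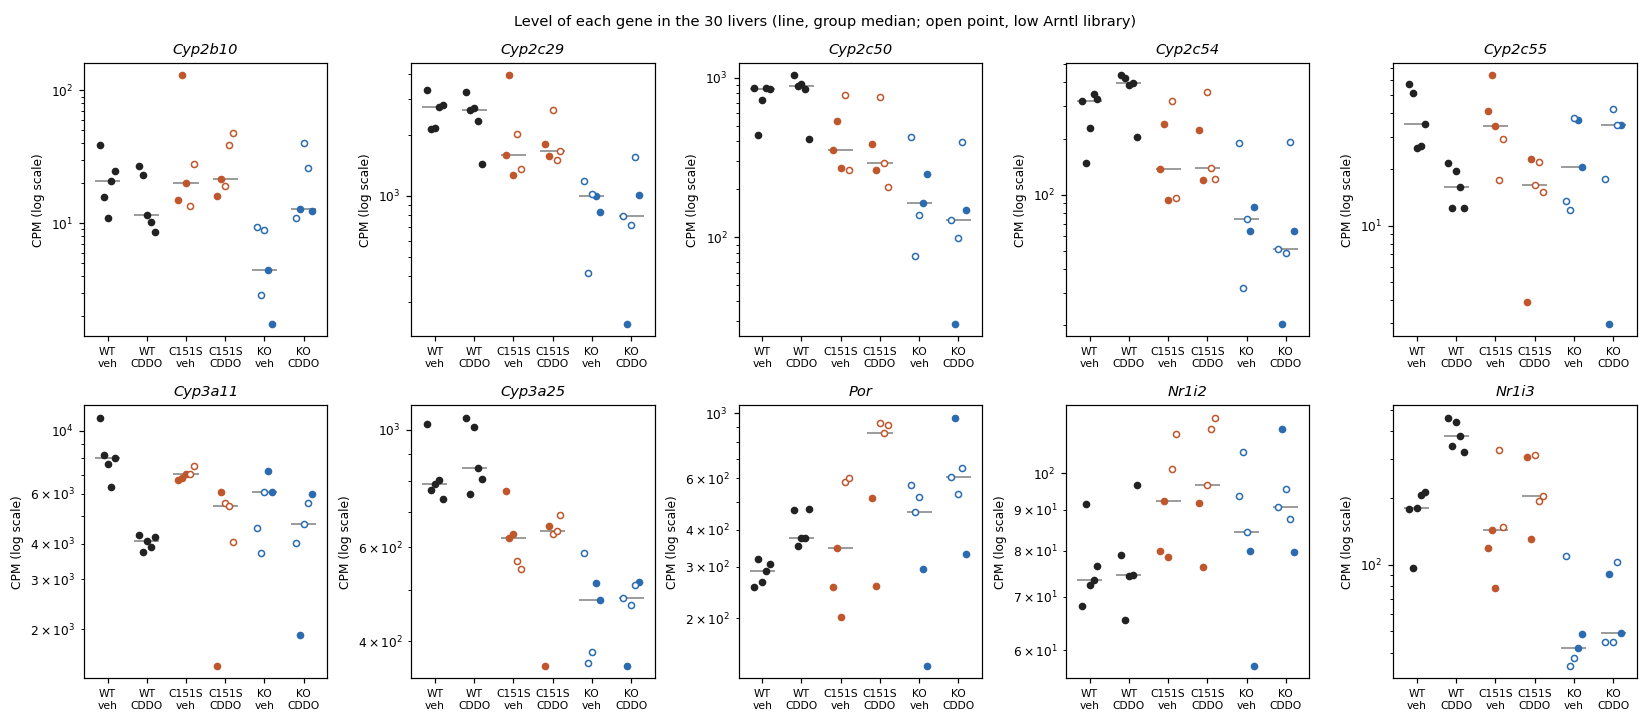
CPM on a log axis for each gene in the 30 livers, by group (WT, wild-type; KO, Nrf2-knockout; veh, vehicle; CDDO, CDDO-Me). Each point is a mouse, the line is the group median, and open points are libraries low in Arntl. Wild-type Nr1i3 is at 321 to 460.4 CPM after CDDO-Me and at 96.6 to 212 CPM after vehicle.

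In wild-type mice, CDDO-Me raised the transcript of CAR and lowered those of Cyp3a11 and Cyp2c55, whereas the other 7 genes did not pass the test. A gene passed when edgeR's quasi-likelihood test gave a Benjamini-Hochberg adjusted p under 0.05 over all genes and the log2 fold change was at least 0.5 in size. By this rule 3 of the 10 genes changed, 1 higher and 2 lower, against 2.75% of the 13697 genes tested. The median log2 fold change was 0.06 over the 10 genes and -0.01 over all genes.

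Nr1i3 was at 179, 96.6, 180.1, 206, and 212 CPM in replicates 1 to 5 of the wild-type vehicle group, and at 460.4, 342, 439, 382, and 321 CPM after CDDO-Me. Every treated mouse was above every vehicle mouse. The log2 fold change was 1.15 (SE 0.19, adjusted p = 0.00398). The PXR gene Nr1i2 had a value of 0.02 (adjusted p = 0.944), with a 95% interval of -0.20 to 0.25.

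Cyp3a11, the main PXR-responsive P450, was at 11135, 8229, 7624, 6361, and 8012 CPM after vehicle and at 4312, 3732, 4110.0, 3891, and 4247 CPM after CDDO-Me. The groups did not overlap, and the treated mean was 0.491 of the vehicle mean, or -1.04 on the log2 scale (SE 0.14, adjusted p = 0.000931). Cyp2c55, a P450 that oxidizes arachidonic acid, was at 57.3, 51.2, 25.9, 26.6, and 35.2 CPM after vehicle and at 21.6, 12.4, 19.6, 16.1, and 12.5 CPM after CDDO-Me. Its groups did not overlap either, and the log2 value, with an SE of 0.24, was -1.27 (adjusted p = 0.0113). For Cyp3a25, the other gene of that family, the value was 0.11 (SE 0.12, adjusted p = 0.731).

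The CAR marker Cyp2b10 was at 38.8, 15.9, 11, 20.6, and 24.6 CPM after vehicle and at 27.0, 23, 11.5, 10.2, and 8.54 CPM after CDDO-Me in wild-type mice. These ranges overlap, and the log2 fold change was -0.48 (SE 0.37, adjusted p = 0.582). Cyp2c29, Cyp2c50, and Cyp2c54 had log2 fold changes of -0.09, 0.12, and 0.43, with adjusted p of 0.871, 0.857, and 0.407 in the same edgeR test. Por was at 256, 317, 266, 291, and 307 CPM after vehicle and at 467, 352, 376, 374, and 472 CPM after CDDO-Me. Every treated mouse was above every vehicle mouse, and its log2 fold change of 0.499 (SE 0.10, adjusted p = 0.0124) fell just short of the size threshold of 0.5. In the fits that left out 1 mouse it stayed short in 4 of 10 and passed in the others. It passed with DESeq2 (0.50, adjusted p = 7.88e-05), with RLE normalization, and with no filter on low counts. With the level of pericentral hepatocyte markers as a covariate, an alternative chosen after seeing the data, it passed as well. It did not pass in 1 fit of all 30 libraries. Over the 21 alternatives its adjusted p was as high as 0.726 in edgeR's test.

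All 3 calls in wild-type mice passed in each of the 10 fits that left out 1 mouse. None of the 3 passed when all 30 libraries shared 1 fit, where the log2 fold changes were -1.03 for Cyp3a11 (adjusted p = 0.0535), 1.15 for Nr1i3 (adjusted p = 0.124), and -1.26 for Cyp2c55 (adjusted p = 0.300). Saa1, an acute-phase gene singled out after its values were seen, was at 926 to 8915 CPM after CDDO-Me and at 100.4 to 1402 CPM after vehicle in wild-type mice. With the Saa1 level as a covariate, an alternative added after seeing the data, the log2 fold changes were -0.95 for Cyp3a11, 0.79 for Nr1i3, and -1.29 for Cyp2c55, with adjusted p of 0.0893, 0.303, and 0.270. Por did not pass in that fit either. In edgeR's test of treatment in wild-type mice, Saa1 (3.07, adjusted p = 0.0625) and Saa2 (4.06, adjusted p = 0.0565) did not pass. The acute-phase genes Orm2 (2.97, adjusted p = 0.0264), Lcn2 (4.25, adjusted p = 0.0303), and Hp (1.15, adjusted p = 0.0195) did pass. In the mutants none of these genes passed for treatment, but all values were positive. For Saa1, Saa2, Orm2, Lcn2, and Hp they were 5.30, 6.99, 4.35, 6.56, and 1.59 in C151S mice. In Nrf2-knockout mice they were 2.96, 4.18, 3.01, 5.09, and 0.77. The part of the acute phase in the changes of the 10 genes was not tested beyond that covariate.

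**Figure D2:**
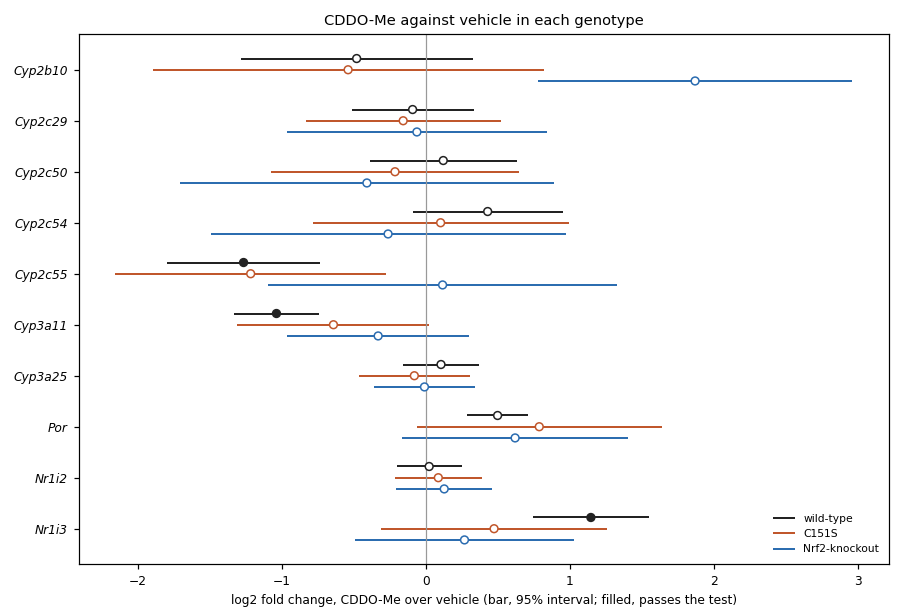
Log2 fold change of CDDO-Me over vehicle for each genotype (wild-type, C151S, Nrf2-knockout), with bars for the 95% interval and filled points for genes that pass the test. The 3 filled points are Cyp2c55, Cyp3a11, and Nr1i3 in wild-type mice.

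In C151S mice none of the 10 genes passed the test for CDDO-Me against vehicle, against 0.092% of the 14128 genes tested. At an unadjusted p under 0.05 there was 1, Cyp2c55, against 1942 of all genes tested, and DESeq2 also called 0 of the 10. Cyp2c55 was at 40.9, 63.7, 34.0, 17.6, and 29.2 CPM after vehicle and at 3.89, 22.7, 16.6, 22, and 15.1 CPM after CDDO-Me, a change of -1.22 on the log2 scale (SE 0.43, adjusted p = 0.350). Cyp3a11 was at 6700.2, 6819, 7031, 7044, and 7547 CPM after vehicle and at 1488, 6073, 5593, 5430.4, and 4064 CPM after CDDO-Me. Every treated C151S mouse was below every vehicle mouse, but the change of -0.64 on the log2 scale did not pass (SE 0.30, adjusted p = 0.372). Replicate 1 of the treated group, the lowest for both genes, had Saa1 at 19584 CPM against 133 to 1468 CPM in the other 4 mice. For Nr1i3 the value was 0.47 in C151S mice (SE 0.36, adjusted p = 0.544), with a 95% interval of -0.31 to 1.26.

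In Nrf2-knockout mice none of the 10 passed either, against 0% of the 14474 genes tested, and DESeq2 called 0 of the 10. At an unadjusted p under 0.05 there was 1 of the 10, against 1136 of all genes tested. That 1 gene was Cyp2b10, at 9.32, 2.88, 8.95, 4.47, and 1.75 CPM after vehicle and at 10.9, 12.8, 40.3, 25.9, and 12.4 CPM after CDDO-Me. Every treated mouse was above every vehicle mouse, and the log2 fold change was 1.87 (SE 0.50, unadjusted p = 0.00289, adjusted p = 0.526). The values were -0.33 for Cyp3a11 (SE 0.29, adjusted p = 0.801) and 0.27 for Nr1i3 (SE 0.35, adjusted p = 0.867), each on the log2 scale.

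The responses to CDDO-Me were then compared between genotypes in 1 fit of all 30 libraries. None of the 10 genes differed between wild-type and C151S mice (background 0.48% of 15010 genes), between wild-type and Nrf2-knockout mice (background 0.266%), or between C151S and Nrf2-knockout mice (background 0.0133%). At an unadjusted p under 0.05 there were 0, 2, and 1 of the 10, against 1247, 942, and 739 of the 15010 genes. DESeq2 called 0 of the 10 in each. The changes of Nr1i3, Cyp3a11, and Cyp2c55 in wild-type mice are therefore not shown to differ from those in the mutants. The wild-type response minus the C151S response was 0.68 (95% interval -0.32 to 1.67) for Nr1i3 and -0.39 (-1.16 to 0.38) for Cyp3a11 on the log2 scale. For Cyp2b10 the wild-type response minus the knockout response was -2.35 (SE 0.80, adjusted p = 0.427).

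Without treatment, Nrf2-knockout livers had lower levels of CAR and of most of the P450 genes than wild-type livers. Of the 10 genes 6 were lower and 0 higher, against 10.4% of the 14030 genes tested, and the median log2 fold change was -1.19 over the 10 and 0.01 over all genes. The 6 were Nr1i3, Cyp2b10, Cyp2c29, Cyp2c50, Cyp2c54, and Cyp3a25.

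Nr1i3 was at 109, 34.9, 37.9, 42.3, and 48.9 CPM in the knockout vehicle group, and 4 of these 5 mice lay below the lowest wild-type value of 96.6 CPM. The log2 fold change was -1.68 (SE 0.32, adjusted p = 0.00606). Cyp2b10 was lower by the largest amount, -2.003 (SE 0.45, adjusted p = 0.0141), and its knockout range of 1.75 to 9.32 CPM lay below the wild-type range of 11 to 38.8 CPM.

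Cyp2c29, an abundant CAR-responsive P450, was at 3312, 2129, 2147, 2737, and 2789 CPM in wild-type vehicle mice and at 1175, 416, 1017, 999, and 836 CPM in knockout vehicle mice. The groups did not overlap, and the log2 fold change was -1.56 (SE 0.24, adjusted p = 0.00255). Cyp2c50 was at 869, 438, 725, 872, and 851 CPM in wild-type and at 427, 77.1, 139, 165, and 252 CPM in knockout mice, a difference of -1.83 on the log2 scale (SE 0.38, adjusted p = 0.00999). Its neighbor Cyp2c54 was at 316, 149, 226, 347, and 325 CPM against 190.1, 31.7, 74.7, 64.2, and 86.0 CPM, a difference of -1.61 (SE 0.40, adjusted p = 0.0199), and here replicate 1 of the knockout overlapped the wild-type range. Cyp3a25 was at 742 to 1026 CPM against 364 to 587 CPM, without overlap, with a value of -0.83 (SE 0.15, adjusted p = 0.00454).

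Between knockout and wild-type vehicle mice the values that did not pass were -0.57 for Cyp3a11 (SE 0.20, adjusted p = 0.0668) and -0.69 for Cyp2c55 (SE 0.35, adjusted p = 0.190). Por and Nr1i2 had values of 0.47 and 0.15, with adjusted p of 0.279 and 0.477 in edgeR's test.

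Glul, a marker of the hepatocytes around the central vein, where many P450 genes are most active, varied between mice in the same groups. It was at 373 to 819 CPM in wild-type vehicle and at 199 to 835 CPM in knockout vehicle livers. The 6 pericentral markers were Glul, Cyp2e1, Cyp1a2, Oat, Slc1a2, and Axin2, of which Cyp2e1 and Cyp1a2 are P450 genes themselves. Their sum was 6242 to 9375 CPM in wild-type vehicle and 3735 to 9478 CPM in knockout vehicle livers. Of the 6 markers 1 was lower and 0 higher in the knockout vehicle group, against 10.4% of all genes tested. Markers of some other liver cells also moved in this comparison, against the same share. In the knockout 3 of 4 markers of sinusoidal endothelium were higher (median log2 fold change 0.74, sums of 140.0 to 221 CPM against 102 to 124 CPM). Of stellate cells 2 of 4 were higher (median 0.50), and of erythroid cells 2 of 3 were lower (median -0.52). No marker of hepatocytes in general, periportal hepatocytes, Kupffer cells, cholangiocytes, or lymphocytes passed. The part of the markers in the lower P450 levels was not tested. An alternative added after seeing the data took the mean log2 level of the 6 pericentral markers alone as a covariate. In that fit 4 of the 6 calls remained (Cyp2c29, Cyp2c50, Cyp3a25, and Nr1i3). The values were -1.54 (adjusted p = 0.174) for Cyp2b10 and -0.83 (adjusted p = 0.0703) for Cyp2c54. With the Arntl side as a covariate Cyp2b10, Cyp2c29, Cyp3a25, and Nr1i3 remained, and the values were -1.84 for Cyp2c50 (adjusted p = 0.0718) and -1.85 for Cyp2c54 (adjusted p = 0.0759). Without replicate 3 of the knockout vehicle group the adjusted p of Cyp2c54 was 0.0508.

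**Figure D3:**
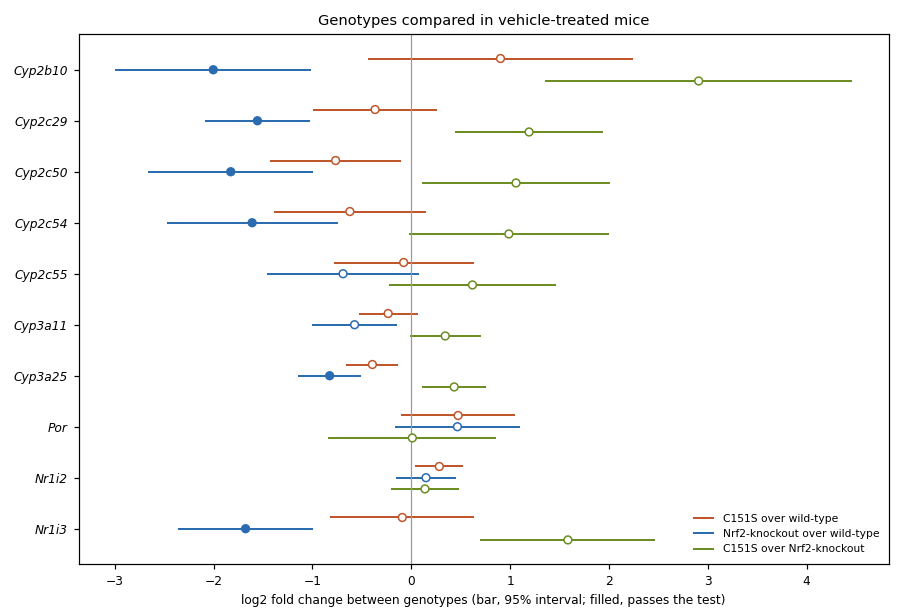
Log2 fold changes between genotypes in vehicle-treated mice, with bars for the 95% interval and filled points for genes that pass the test. The 6 filled points are all in the comparison of Nrf2-knockout with wild-type mice and all lie below 0.

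C151S vehicle livers did not differ from wild-type vehicle livers in any of the 10 genes by the test, against 4.84% of the 13946 genes tested. DESeq2 also called 0 of the 10. At an unadjusted p under 0.05 there were 3 of the 10, against 3700 of all genes tested. Those 3 were Cyp3a25 at -0.39 (SE 0.12, adjusted p = 0.0673), Cyp2c50 at -0.76 (SE 0.30, adjusted p = 0.133), and Nr1i2 at 0.28 (SE 0.11, adjusted p = 0.130). Cyp2b10 in replicate 2 of this group was at 129.7 CPM, and the other 4 mice were at 13.5 to 28.2 CPM.

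Between C151S and Nrf2-knockout vehicle mice 0 of the 10 passed, against 0.349% of the 14323 genes tested. At an unadjusted p under 0.05 there were 5 of the 10, against 1625 of all genes tested. DESeq2 called 3 of the 10, Cyp2b10, Cyp2c29, and Nr1i3. All 10 log2 fold changes were positive, from 0.01 for Por to 2.91 for Cyp2b10. Cyp2b10 (13.5 to 129.7 CPM against 1.75 to 9.32 CPM) and Cyp2c29 (1267 to 3917 CPM against 416 to 1175 CPM) did not overlap between these groups.

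After CDDO-Me, wild-type livers were higher than Nrf2-knockout livers in 5 of the 10 genes and lower in 0, against 9.44% of the 13935 genes tested. Nr1i3 was at 44.9, 91.0, 44.9, 103, and 49.2 CPM in treated knockout mice, below all 5 treated wild-type mice, with a log2 difference of 2.55 (SE 0.25, adjusted p = 6.0e-05). Cyp2c50 was at 1037, 888, 911, 856, and 417 CPM in treated wild-type and at 129, 28.7, 99.0, 396, and 149 CPM in treated knockout mice, a log2 difference of 2.35 (SE 0.53, adjusted p = 0.0139). Cyp2c54 at 2.30 (SE 0.49, adjusted p = 0.00990), Cyp2c29 at 1.52 (SE 0.39, adjusted p = 0.0255), and Cyp3a25 at 0.94 (SE 0.14, adjusted p = 0.00135) were the other 3. This comparison shares no library with that of the vehicle groups.

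Only Nr1i3 still passed here with the pericentral marker level as a covariate, where the log2 differences were 0.59 for Cyp2c29 (adjusted p = 0.599), 1.04 for Cyp2c50 (adjusted p = 0.347), 1.09 for Cyp2c54 (adjusted p = 0.188), and 0.70 for Cyp3a25 (adjusted p = 0.124). The 6 pericentral markers summed to 7406 to 9569 CPM in treated wild-type and 3304 to 9031 CPM in treated knockout livers. Of the 6, 1 was higher in wild-type and 0 lower, against 9.44% of all genes tested. It was Cyp1a2, itself a P450 gene (log2 difference 1.95, adjusted p = 0.00642 in edgeR's test). Because the covariate holds P450 genes, this fit cannot tell a difference of zone from a difference of P450 genes. Of 6 periportal markers 4 were lower in treated wild-type than in treated knockout livers (median log2 difference -0.58, sums of 3351 to 5740 CPM against 4646 to 6363 CPM), as was 1 of 4 endothelial markers, and 1 of 5 Kupffer cell markers was higher. These counts stand against the same 9.44% of all genes. No marker of hepatocytes in general, stellate cells, cholangiocytes, erythroid cells, or lymphocytes passed. The part of the markers was not tested. The call of Cyp2c29 was lost without wild-type replicate 1, 2, or 3 or knockout replicate 3, with an adjusted p of up to 0.0671.

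**Figure D4:**
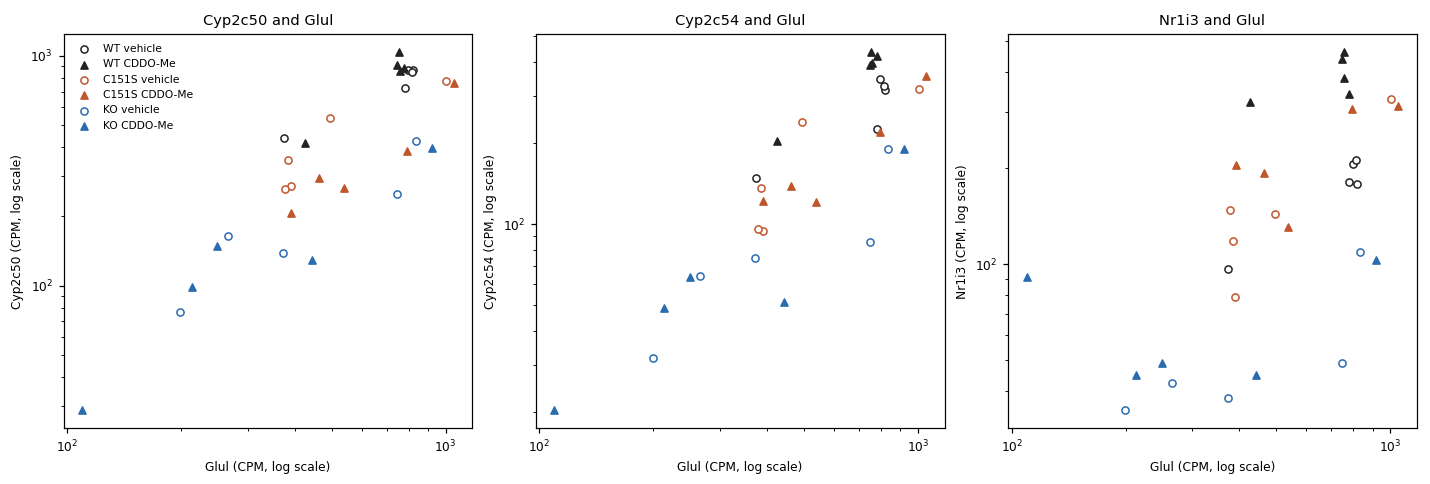
Cyp2c50, Cyp2c54, and Nr1i3 against Glul, each in CPM on log axes, with 1 point per liver (open circles, vehicle; triangles, CDDO-Me). The lowest Cyp2c50 and Cyp2c54 values, 28.7 and 20.4 CPM, are in the Nrf2-knockout liver with the lowest Glul, 109 CPM.

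Treated wild-type and treated C151S livers differed in 0 of the 10 genes, against 5% of the 13844 genes tested. At an unadjusted p under 0.05 there were 7 of the 10, against 3402 of all genes tested. DESeq2 called 4 of the 10, Cyp2c50, Cyp2c54, Cyp3a25, and Nr1i3. Nr1i3 (321 to 460.4 CPM in wild-type and 131 to 313 CPM in C151S) and Cyp3a25 (756 to 1053 CPM and 359.7 to 691 CPM) did not overlap, with adjusted p of 0.0610 and 0.0734 in edgeR's test. Between treated C151S and treated Nrf2-knockout mice 0 of the 10 passed, against 0.162% of the 14186 genes tested. At an unadjusted p under 0.05 there were 4 of the 10, against 1110 of all genes tested. Nr1i3 did not overlap there (131 to 313 CPM against 44.9 to 103 CPM) and had a log2 difference of 1.79 (SE 0.31, adjusted p = 0.0507), which DESeq2 called.

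Por, the electron donor of the P450 enzymes, varied along with Arntl among the mutant livers. In C151S mice Por was at 585 to 928 CPM in the 5 libraries low in Arntl and at 201 to 513 CPM in the 5 high in Arntl, without overlap. In Nrf2-knockout mice it was at 460.1 to 653 CPM in the 6 low libraries and at 137 to 967 CPM in the 4 high ones, where replicate 2 of the treated group held the highest value. Dbp, a clock-controlled transcription factor, was at 117 to 185 CPM in all 11 low libraries and at 4.58 to 66.6 CPM in the 9 high mutant libraries. The part of the clock state in the levels of Por was not tested beyond the alternatives with the Arntl side.

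**Figure D5:**
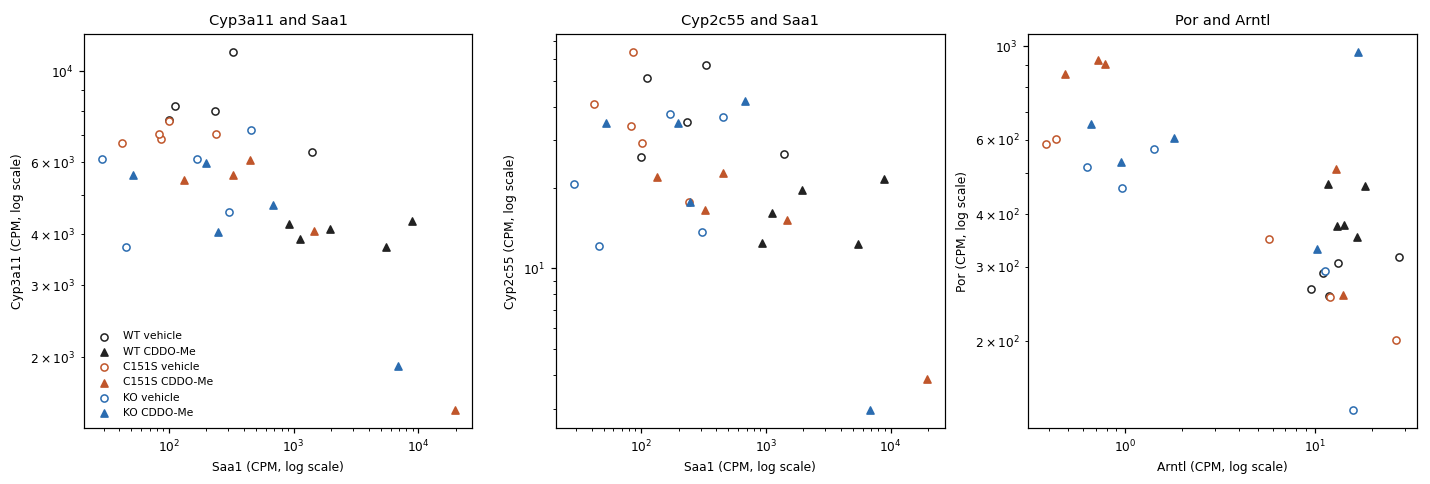
Cyp3a11 and Cyp2c55 against Saa1, and Por against Arntl, in CPM on log axes with 1 point per liver (open circles, vehicle; triangles, CDDO-Me). The mutant livers with Saa1 at 19584 and 6856 CPM have the lowest Cyp3a11, 1488 and 1909 CPM.

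The genes around these 10 were counted in lists. Of 14 genes of electron and heme supply, 2 rose and 0 fell with CDDO-Me in wild-type mice, against 2.75% of all genes tested. They were Pgrmc1 (log2 fold change 0.52, SE 0.08, adjusted p = 0.00366), a heme-binding partner of P450 enzymes, and Alas1 (1.00, SE 0.22, adjusted p = 0.0211), the first enzyme of heme synthesis. The median over the list was 0.10. In knockout vehicle livers Cyb5b (-1.14, SE 0.12), a cytochrome b5, and Pgrmc1 (-0.80, SE 0.10) were lower than in wild-type vehicle livers. None passed for treatment in either mutant, against 0.092% of all genes tested in C151S mice and 0% in knockout mice. With shares this low, 0 in this list or those below says nothing particular about the list.

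Of 25 conjugation and transport genes listed as CAR or PXR targets, 23 were tested in wild-type mice, and 10 rose and 1 fell with CDDO-Me, against 2.75% of all genes tested, with a median log2 fold change of 0.58. The glucuronosyltransferase Ugt2b35 (1.41, SE 0.10) and the efflux transporters Abcc3 (0.98, SE 0.13) and Abcc4 (1.94, SE 0.27) had the lowest p, and Thrsp, named after its value was seen, fell (-1.27, SE 0.25). In knockout vehicle livers 10 of 23 were lower and 0 higher than in wild-type vehicle livers, against 10.4% of all genes, with a median of -0.52. In C151S vehicle livers 5 of 23 were lower and 3 higher, against 4.84% of all genes, with a median of -0.19. None of the list passed for treatment in C151S mice (of 23) or knockout mice (of 24), against 0.092% and 0% of all genes. The response of 2 of these genes differed between wild-type and C151S mice, against 0.48% of all genes, Ugt2b35 by 1.51 (SE 0.28, adjusted p = 0.00362) and Abcc4 by 1.88 (SE 0.38, adjusted p = 0.0104). Several genes of the list, Abcc3, Abcc4, and Gsta2 among them, are also known as NRF2 targets. All 10 NRF2 reference targets rose in wild-type mice, against 2.75% of all genes, with a median log2 fold change of 2.30. In C151S and knockout mice 0 of 9 passed, against 0.092% and 0% of all genes.

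Of 18 receptor partners and coregulators none passed for treatment in any genotype. The shares of all genes were 2.75%, 0.092%, and 0% in wild-type, C151S, and knockout mice. Against wild-type vehicle livers 1 of the 18 was lower and 0 higher in C151S (4.84% of all genes called) and in knockout vehicle livers (10.4%). Both counts were near or below those shares. The 1 gene was Hsp90aa1, a chaperone of the CAR complex (-0.94, SE 0.16 in C151S and -1.05, SE 0.17 in the knockout). Among 23 other genes of the Cyp2b, Cyp2c, and Cyp3a families, Cyp3a13 (0.56, SE 0.10) and Cyp2c39 (1.24, SE 0.26) rose with CDDO-Me in wild-type mice, 2 of 12 tested against 2.75% of all genes. Cyp2c39 was low there, at 0.968 to 5.44 CPM. None of this list passed for treatment in C151S mice (of 14) or knockout mice (of 13), against 0.092% and 0% of all genes. Cyp3a13 was at 159 to 196 CPM after vehicle and at 227 to 521 CPM after CDDO-Me in C151S mice, without overlap. In knockout mice it was at 137 to 195 CPM and at 176 to 478 CPM. In knockout vehicle livers 4 of 13 were higher and 2 lower than in wild-type vehicle livers, against 10.4%, and in C151S vehicle livers 4 of 14 were higher and 1 lower, against 4.84%. Cyp2c40 was higher in both mutants (4.26, SE 0.77 in the knockout and 2.54, SE 0.29 in C151S), and Cyp3a59 was lower in both (-1.11, SE 0.21 and -0.88, SE 0.19). Cyp2b9 also passed as higher in both. It was at 0 to 0.492 CPM in wild-type vehicle livers, with at most 3 counts in 3 of the 5, at 0.544 to 8.34 CPM in C151S, and at 0.919 to 9.16 CPM in 4 knockout livers with 59.0 CPM in replicate 3. No fold is given for it because the wild-type level is near 0. Of 15 clock genes and PAR bZip factors none passed for treatment, against 2.75%, 0.092%, and 0% of all genes in wild-type, C151S, and knockout mice. In knockout vehicle livers 3 were higher and 2 lower than in wild-type vehicle livers, against 10.4% of all genes. Of these livers 3 knockout and 0 wild-type ones were low in Arntl, and the part of this was not tested.

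Over the 30 libraries the profiles of Cyp2c50 and Cyp2c54 were the most alike of any pair of the 10, with a root mean square difference of 0.201 between their scaled log2 profiles. Cyp2c37, another gene of this cluster, was next nearest to Cyp2c54 at 0.253, and Cyp2c29 was nearest to Cyp2c50 at 0.358. Cyp2c50, Cyp2c54, and Cyp2c37 share stretches of sequence. Of the 50-base stretches of Cyp2c50, 12.6% also occur in Cyp2c37 and 10.3% in Cyp2c54. Of those of Cyp2c54, 17.5% occur in Cyp2c50 and 16% in Cyp2c37. Cyp2c55 and Cyp3a11, on different chromosomes, were each other's nearest gene of the 10857 compared, at 0.489. Por was nearest to Rhbdd2 at 0.366, Nr1i2 to Nrg4 at 0.486, Nr1i3 to Cd1d1 at 0.457, Cyp3a25 to Fam210a at 0.471, and Cyp2b10 to Ankrd26 at 0.843, the least close of these.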

How the data were processed

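The deposited values are raw counts of reads per gene, which the authors made with STAR 2.7.7 on mm10 and GENCODE release 23, keeping the strand that matches the library and reads with a single position. The 4 summary lines were left out, and symbols came from GENCODE release 21. Counts on genes, 65.9% to 80.6% of the reads, set the precision, and intervals of single genes cover the spread between mice. Comparisons of 2 groups used the 10 libraries of those groups and comparisons of responses all 30, with TMM normalization, filterByExpr, and the quasi-likelihood test of edgeR 4.0.16 in R 4.3.3. The code was tested on simulated data. The isolation date that the study used as a covariate is not in the labels and was not used here. The alternatives were DESeq2 1.42.0, other normalizations and filters, a replicate block, Arntl, pericentral marker, and Saa1 terms, and leaving out each mouse. The genes and lists were chosen with earlier results of these data known. Named genes are the 10, the library checks, cell markers, up to 3 passing genes with the lowest p per list, and nearest profiles. Glul, Cyp1a2, and the acute-phase genes were named after their values were seen. The result of 1 gene of these lists, and the count that holds it, are not reported here.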

Additional observations from a re-analysis of the deposited data

Results flagged for a closer look

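Among the 60 groups of 5 mice (10 genes in 6 groups), 9 held a mouse far from the other 4 on the log2 scale, where chance flags about 1 group in 20. Among them, 2 mutant livers account for 4. C151S CDDO-Me replicate 1 was lowest for Cyp3a11 (1488 CPM, others 4064 to 6073), Cyp2c55 (3.89 CPM, others 15.1 to 22.7), and Cyp3a25 (359.7 CPM, others 637 to 691). Nrf2-knockout CDDO-Me replicate 2 was lowest for Cyp3a25 (359 CPM, others 467 to 517). These are also the mutant livers with the highest Saa1.

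Wild-type vehicle replicate 2 was lowest for Cyp2c50 (438 CPM, others 725 to 872) and Nr1i3 (96.6 CPM, others 179 to 212), and wild-type CDDO-Me replicate 5 was lowest for Cyp2c50 (417 CPM, others 856 to 1037) and Cyp2c54 (204 CPM, others 389 to 435). Both had the lowest Glul of their group, 373 and 425 CPM. Wild-type vehicle replicate 1 was highest for Cyp3a25 (1026 CPM, others 742 to 805).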

How the results depend on the processing

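Of 3269 values of single genes under the alternatives, 0 changed sign while called, and 20 lost and 55 gained a call. Counts under the alternatives are given without the share of all genes called under them. The number of genes called moved by over 1.5 times as follows, and the cause was not tested. In 1 fit of all 30 libraries it was 0 instead of 3 for treatment in wild-type mice, 2 instead of 0 for C151S against knockout vehicle, and 1 instead of 0 for treated C151S against treated wild-type (Cyp3a25) and against treated knockout mice (Nr1i3). DESeq2 gave 3, 4, and 1 for C151S against knockout vehicle, wild-type against C151S CDDO-Me, and C151S against knockout CDDO-Me, and no filter gave 1, 2, and 1. RLE normalization and the edgeR 4 form of the fit gave 1 for C151S against knockout CDDO-Me, Nr1i3 each time. With only libraries high in Arntl, C151S against wild-type vehicle gave 1, Cyp2c50. Alternatives added after seeing the data gave 0 for treatment in wild-type mice and 1 for wild-type against C151S CDDO-Me with Saa1, 1 for the latter without the 2 high-Saa1 mutant libraries, and 2 for C151S against knockout vehicle and 1 for wild-type against knockout CDDO-Me with the pericentral level. DESeq2 gave no adjusted p for Cyp2c54 in that last comparison. Smaller changes were 4 instead of 3 for treatment in wild-type mice (Por) with no size threshold, DESeq2, RLE, no filter, or the pericentral level. For knockout against wild-type vehicle they were 7 with DESeq2 (Cyp3a11, -0.57, adjusted p = 0.0215) and 4 with the Arntl side or the pericentral level. For wild-type against knockout CDDO-Me DESeq2 called Por (-0.59, adjusted p = 0.0498), Cyp2c29 was lost with only libraries high in Arntl (1.97, adjusted p = 0.0598), and Cyp2c55 passed without the 2 high-Saa1 libraries.

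Leaving out 1 mouse gave 3 to 4 genes for treatment in wild-type mice, 5 to 7 for knockout against wild-type vehicle, 0 to 1 for C151S against wild-type vehicle, 4 to 6 for wild-type against knockout CDDO-Me, 0 to 3 for wild-type against C151S CDDO-Me, and 0 to 1 for C151S against knockout CDDO-Me. For treated wild-type against C151S mice it was 3 without C151S replicate 3, 2 without wild-type replicate 5, and 1 without C151S replicate 1 or 2, and for treated C151S against knockout 1 without C151S replicate 2 or knockout replicate 4. For vehicle C151S against wild-type it was 1 without C151S replicate 2 (Cyp2c29) or 4 (Cyp2c50). Against wild-type vehicle, Por passed without knockout replicate 5 (0.68, adjusted p = 0.0171) and Cyp3a11 without knockout replicate 4 (-0.69, adjusted p = 0.0405). In treated mice Cyp2c55 passed without knockout replicate 2 (-0.99, adjusted p = 0.0206) and Por without knockout replicate 5 (-0.75, adjusted p = 0.0174) in wild-type against knockout. All other comparisons stayed at 0. In none of the 9 comparisons did all 5 pairs of same-numbered mice correlate over 0.1, so the numbers were not taken as pairs. The replicate block gave 3 genes instead of 0 for wild-type against C151S CDDO-Me (Cyp2c50, Cyp2c54, and Nr1i3). There 4 of 5 pairs were over 0.1, with a mean of 0.194 against -0.0542 for other numbers, and 2 of 5 wild-type mice correlated best with their own number.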
